A study of Arabidopsis thaliana with 11 samples.

Results

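The expansin family of *Arabidopsis* was followed by RNAseq in the roots of WT and *BRL3ox* plants that were watered or had passed 5 days without water. Its members were taken by gene identifier and number 34 of the 33341 genes in the count files: 25 alpha-expansins (*EXPA*), 5 beta-expansins (*EXPB*) and 4 expansin-like genes (*EXLA1* to *EXLA3* and *EXLB1*). The 11 samples were 3 WT control, 2 *BRL3ox* control (replicates 1 and 3), 3 WT drought and 3 *BRL3ox* drought samples of whole mature roots. WT was Columbia-0, and *BRL3ox* is 1 line in the same background that carries BRL3-GFP, a tagged brassinosteroid receptor, under the constitutive 35S promoter. All plants grew 7 days on agar and 16 days in soil in a 16/8 h light/dark cycle at 22 °C before treatment, and the labels give them an age of 28 days. The second *BRL3ox* control sample was not analysed here.

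Expansins are secreted proteins that let cellulose microfibrils slide past each other at the acidic pH of a growing wall, without cutting the wall polymers. Alpha- and beta-expansins loosen walls in this way, whereas expansin-like proteins share both expansin domains but have no proven loosening activity. In roots, alpha-expansins are known for cell elongation, for the outgrowth of root hairs and for the emergence of lateral roots through the overlying tissue. Brassinosteroids are among the hormones that raise expansin transcripts in elongating organs.

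The family split by subfamily in drought. All 4 expansin-like genes rose in both genotypes, from 1.96 times for *EXLA3* in WT to 15.5 times for *EXLB1* in *BRL3ox*. No alpha- or beta-expansin rose in either genotype by edgeR's quasi-likelihood test or DESeq2, and 0 of 20 were higher at an unadjusted p under 0.05 by the former, where 17.6% of all tested genes were in WT and 18.4% in *BRL3ox*. In WT, *EXPA12* and *EXPA17* fell, and in *BRL3ox* roots these and *EXPA8*, *EXPA9*, *EXPA11* and *EXPA14* fell, by 1.76 to 3.29 times. Between genotypes, *EXPA8* was higher in *BRL3ox* than in WT under control conditions, by 2.503 times, and after drought *EXPA12* and *EXPA17* were lower in *BRL3ox*, by 2.40 and 1.97 times. A gene was called changed, here and throughout, at a false discovery rate (FDR, Benjamini-Hochberg) under 0.05 and a fold change over 1.5 in edgeR's quasi-likelihood test on all tested genes. RNA was taken from whole roots, so that fewer cells of a type and less RNA per cell cannot be told apart.

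Of the 34 members, 24 passed the filter on low counts (17 *EXPA*, 3 *EXPB* and all 4 expansin-like genes), as did 20718 of all genes. The other 10 were hardly or not detected in these roots. *EXPA23*, *EXPA24*, *EXPA25*, *EXPA26*, *EXPB4* and *EXPB5* had 0 counts in all 11 samples. In a single sample, 0 counts allow an expected count of up to 3, and 0 counts in all 11 samples allow less. *EXPA21* and *EXPA22* had 1 count each over all samples, *EXPA2* had 13 and *EXPA16* had 47. *EXPA21* to *EXPA26* lie side by side on chromosome 5 with 0 other protein-coding genes between neighbours, and some are close copies: the coding sequences of *EXPA22* and *EXPA26* are 97.7% identical and those of *EXPA23* and *EXPA25* are 97.5% identical. Reads from such stretches cannot be assigned to 1 copy, so their low counts are uncertain.

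The samples held 18610736 to 22817390 counts on genes, and classes of reads off genes took 10.5% to 12.9% of each file's total. Abundance is given as CPM, the count relative to a library size scaled by the trimmed mean of M values (TMM), and changes are log2 fold changes from the model. *BRL3* was at 44.8 to 70.8 CPM in WT, at 974 and 1652 CPM in *BRL3ox* control and at 2447 to 3180 CPM in *BRL3ox* drought samples. Within *BRL3ox* it was thus higher in drought, by 1.12 on the log2 scale (SE 0.25, adjusted p = 0.0106, edgeR), so that the comparisons of the genotypes in control and in drought roots, and the interaction, are at different levels of *BRL3*. All 13 root cell type markers passed the filter, and none was at 0 in any sample. The summed level of 12 photosynthesis genes that mark shoot tissue, 10 of them tested, ranged from 14.6 to 351 CPM, both extremes in WT control roots (replicates 3 and 2). No label says whether the replicates came from separately grown batches, so p-values measure only the spread between these samples, which may be technical.

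Per kb of exon, the 4 expansin-like genes held the first 4 places of the family by mean level. Means over all samples were 427 CPM per kb for *EXLA1*, 323 for *EXLA3*, 227 for *EXLB1* and 76.2 for *EXLA2*. The next places fell to *EXPB3* (57.7 CPM per kb), *EXPA4* (47.7), *EXPA9* (30.5) and *EXPA13* (25.8). At the low end of the tested members, *EXPA5*, *EXPA10* and *EXPA20* stayed under 0.93 CPM in every sample. *EXPA5* is known from other work as a brassinosteroid-responsive expansin, and *EXPA10* as an expansin of growing leaves.

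**Figure D1:**
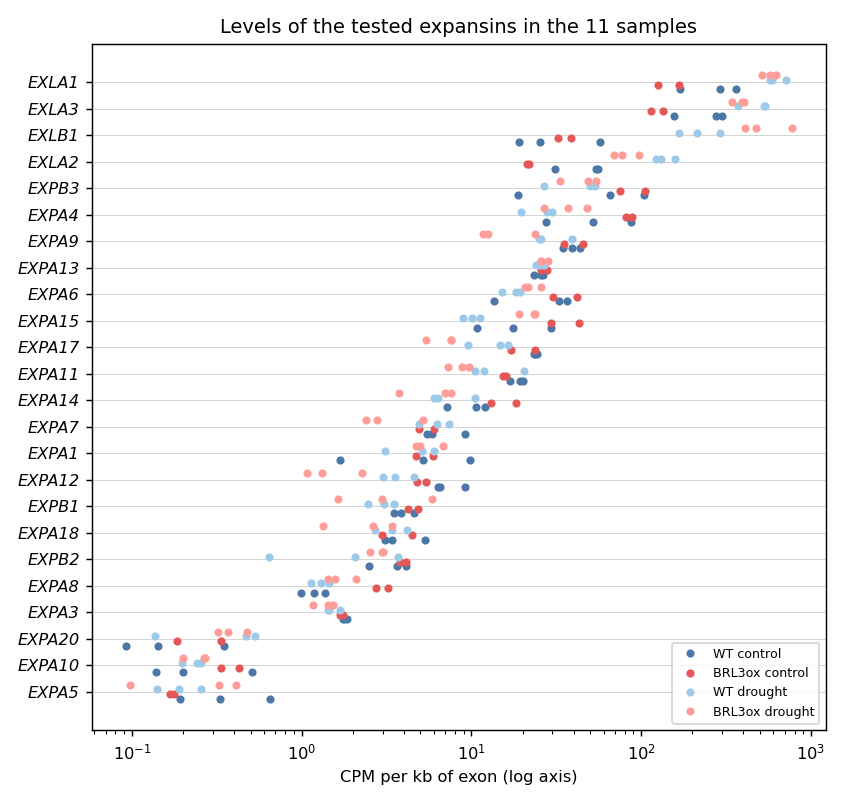
Level of each of the 24 tested expansins in each of the 11 samples, in CPM per kb of exon on a log axis, with genes ordered by their mean and points coloured by group. The 4 expansin-like genes are the first 4 by mean, and *EXPA5*, *EXPA10* and *EXPA20* are the last 3.

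The balance of the family changed with drought. Expansin-like genes made up 41.3% to 74.2% of the summed expansin CPM in the 3 WT control samples and 33.2% and 43.3% in those of *BRL3ox*. After drought the share was 82.1% to 84.8% in WT and 81.5% to 88.3% in *BRL3ox* roots. Control and drought samples did not overlap in this share in either genotype.

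*EXLA1* (AT3G45970) and *EXLA3* (AT3G45960) are neighbours on the plus strand of chromosome 3, 2012 bp apart, at 16896166-16897308 and 16892702-16894153 in TAIR10.1. Their coding sequences are 86.6% identical. *EXLA2* (AT4G38400), 84.7% identical to *EXLA1*, and *EXLB1* (AT4G17030) lie apart on the minus strand of chromosome 4, at 17978422-17979740 and 9581562-9583290. At the read length of 45 bases, *EXLA1* and *EXLA3* share 13 stretches, 1.22% of those in *EXLA1* and 0.95% of those in *EXLA3*, and *EXLA2* and *EXLB1* share none with another gene, so nearly all reads can be told apart. The promoters of these 4 genes are shown because they rose together. Each is the 250 bases before the annotated start in TAIR10.1 (RefSeq), 5′ to 3′ on the gene's strand, in lower case, with ACGTG on the shown strand in capitals. ACGTG is the core of the abscisic acid response element, through which abscisic acid acts on many drought-induced genes.
EXLA1, chr3:16895916-16896165, plus strand: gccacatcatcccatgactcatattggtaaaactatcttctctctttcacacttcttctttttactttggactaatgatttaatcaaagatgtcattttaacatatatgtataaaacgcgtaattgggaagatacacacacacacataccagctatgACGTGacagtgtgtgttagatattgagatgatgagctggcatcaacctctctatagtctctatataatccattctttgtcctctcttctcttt
EXLA2, chr4:17979741-17979990, minus strand: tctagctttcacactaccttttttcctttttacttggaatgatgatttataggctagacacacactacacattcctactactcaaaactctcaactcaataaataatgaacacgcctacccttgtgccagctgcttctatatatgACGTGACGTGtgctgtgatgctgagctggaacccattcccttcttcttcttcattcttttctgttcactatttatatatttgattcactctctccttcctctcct
EXLA3, chr3:16892452-16892701, plus strand: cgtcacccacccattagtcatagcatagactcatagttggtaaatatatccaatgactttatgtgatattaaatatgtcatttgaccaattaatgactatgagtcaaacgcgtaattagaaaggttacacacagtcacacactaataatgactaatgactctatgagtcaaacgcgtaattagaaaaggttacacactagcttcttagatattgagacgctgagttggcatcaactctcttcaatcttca
EXLB1, chr4:9583291-9583540, minus strand: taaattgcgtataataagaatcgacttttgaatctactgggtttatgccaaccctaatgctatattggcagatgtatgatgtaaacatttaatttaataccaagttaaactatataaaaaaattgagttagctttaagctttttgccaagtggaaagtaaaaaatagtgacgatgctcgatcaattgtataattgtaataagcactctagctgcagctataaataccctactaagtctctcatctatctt

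*EXLA1* held 1 ACGTG and *EXLA2* held 2, and no ACGTG was found on either strand of the *EXLA3* and *EXLB1* windows. Of all 34 members, 8 had ACGTG on either strand (23.5%), against 22.9% of 27443 promoters of the same length. It was found in 0 of the 6 members that fell in *BRL3ox* drought roots. *EXLA1* and *EXLA2* share the 11-base stretch tatgacgtgac, which begins at position -97 from the start of *EXLA1* and -109 from that of *EXLA2*. *EXLA1* and *EXLA3* share the 13-base stretch ttagatattgaga. The *EXLA2* window also overlaps a small annotated gene, AT4G38401. The element CGTGTG or CGTGCG, bound by the brassinosteroid factor BZR1, was in 7 of 34 members on either strand (20.6%), against 6.71% of all promoters: *EXPA1*, *EXPA2*, *EXPA6*, *EXPA7*, *EXPA18*, *EXPB3* and *EXLA2*. Some of these sites overlap an ACGTG, as in *EXLA2*. None of the 6 members that fell had it. Other motifs were at 4 of 34 for TGTCTC (11.8%, against 10.9% of all promoters), 13 for TTGAC (38.2%, against 44.9%) and 2 for CCGAC (5.88%, against 12%). CACGTG was in 1 (2.94%, against 6.49%). The E-box CANNTG, where N is any base, was in 23 (67.6%, against 55.3%). It was in 5 of the 6 members that fell and in 3 of the 4 that rose. These are matches of letters on both strands and say nothing of binding.

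The first question was how WT roots changed in drought. *EXLA1* was at 310, 180 and 384 CPM in WT control replicates 1, 2 and 3 and at 624, 759 and 612 CPM in the WT drought replicates, a log2 change of 1.19 (SE 0.24, adjusted p = 0.00771, edgeR's quasi-likelihood test). *EXLA3* went from 378, 214 and 410 CPM to 508, 735 and 719 CPM, a log2 change of 0.97 (SE 0.23, adjusted p = 0.0159, edgeR). Control and drought samples did not overlap for either gene, and replicate 2 was the lowest of the WT controls for both. *EXLA2*, a gene whose loss is known to alter the response to necrotrophic fungi, was at 61.3, 35.1 and 62.4 CPM in control and 138, 177 and 148 CPM in drought. Its log2 change was 1.55 (SE 0.21, adjusted p = 0.00135, edgeR). *EXLB1* was at 21.4, 28.4 and 64.1 CPM in control and 187, 237 and 323 CPM in drought, a log2 change of 2.72 or 6.57 times (SE 0.41, adjusted p = 0.00209, edgeR). Here replicate 3 was the highest in both conditions, and the lowest drought sample still lay above every control.

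*BRL3ox* roots showed the same 4 rises. *EXLB1* was at 36.1 and 43.3 CPM in *BRL3ox* control replicates 1 and 3 and at 865, 453 and 530 CPM in drought, a log2 change of 3.96 or 15.5 times (SE 0.51, adjusted p = 0.000945, edgeR). *EXLA1* was at 134 and 177 CPM in control and 666, 611 and 546 CPM in drought, a log2 change of 1.97 (SE 0.28, adjusted p = 0.00149, edgeR). *EXLA2* went from 24.5 and 24.01 CPM to 110, 77.6 and 86.3 CPM, with a log2 change of 1.91 (SE 0.25, adjusted p = 0.00102, edgeR). Every drought sample lay above both controls for these genes, and *EXLB1* replicate 1 was the highest value of any expansin. *EXLA3*, at 156 and 183 CPM in control and 555, 467 and 537 CPM in drought, rose by 1.62 on the log2 scale (SE 0.27, adjusted p = 0.0027, edgeR).

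**Figure D2:**
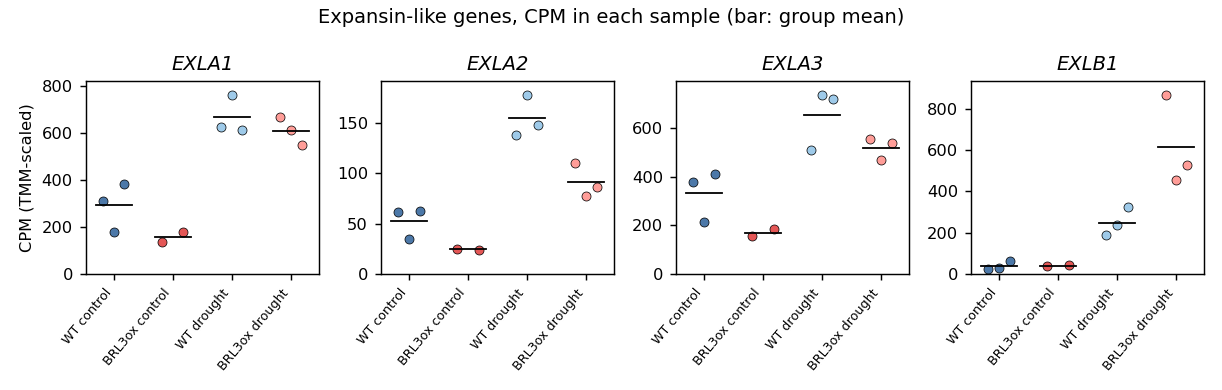
CPM of the 4 expansin-like genes in each sample by group, with the group mean as a bar and each axis starting at 0. Drought samples lie above all control samples of their genotype in every panel, and the highest values of *EXLB1* (453 to 865 CPM) are in *BRL3ox* drought roots.

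Touch- and wound-responsive genes followed the *EXLA* genes in part. The summed level of 8 touch- and wound-responsive genes was 4208, 2851 and 5731 CPM in WT control replicates 1, 2 and 3, the order in which *EXLA1*, *EXLA2* and *EXLA3* stood in these samples. It was 2057 and 2604 CPM in *BRL3ox* control, 5177 to 7567 CPM in WT drought and 5349 to 5961 CPM in *BRL3ox* drought roots. Within the drought groups none of the 3 *EXLA* genes had the order of the sum. Replicate 3 had the highest sum in both (7567 and 5961 CPM) and the lowest *EXLA1* (612 and 546 CPM). Of these 8 genes, 2 rose in WT and 4 rose in *BRL3ox* roots in drought, against 7.54% and 9.14% of all tested genes. Their score, the mean of their log2 CPM, was then used as a covariate, in a model chosen after seeing the data. *EXLA1*, *EXLA2* and *EXLB1* kept their WT calls (adjusted p up to 0.0465, edgeR), with log2 fold changes of 0.78, 1.22 and 2.14. *EXLA3* at 0.45 did not (adjusted p = 0.0935, edgeR). In WT 6.19% of all tested genes were called in that model, against 12.4% without the score. In *BRL3ox* roots 0 of 24 members were called in it, and 2.42% of all tested genes, against 16.1% without the score. There *EXLB1* was at 2.52 (adjusted p = 0.0921, edgeR) and *EXLA2* at 1.06 (adjusted p = 0.219, edgeR). Each of the 8 genes was higher in every *BRL3ox* drought sample than in both *BRL3ox* controls, so the score and the condition cannot be told apart there.

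Counted over the 24 tested members, 4 rose and 2 fell in WT drought roots, where 7.54% of all tested genes rose and 4.84% fell (12.4% in all). In *BRL3ox* roots 4 rose and 6 fell, against 9.14% and 6.98% of all tested genes (16.1% in all). At an unadjusted p under 0.05 (edgeR) there were 8 members in WT and 12 in *BRL3ox*, against 33.6% and 35.1% of all tested genes. Without overlap between control and drought samples, 4 members were higher and 3 lower in WT, where 17.2% of all tested genes were higher and 17.2% lower. In *BRL3ox*, with 2 controls, 4 were higher and 13 lower, against 27.6% and 28.9%. All 6 members called in WT were also called in *BRL3ox*, which is 60% of the 10 called there, and the 2 comparisons use separate samples but 1 shared estimate of spread. This overlap was not counted over all tested genes, so it cannot be read as a trait of the family. The median log2 fold change of the 20 tested alpha- and beta-expansins was -0.39 in WT and -0.67 in *BRL3ox*, with 17 of 20 below 0 in each. The median of the 4 expansin-like genes was 1.37 and 1.94, and that of all tested genes was -0.02 in each genotype. The WT calls of *EXLA1*, *EXLA2* and *EXLB1* and the *BRL3ox* calls of all 4 expansin-like genes stood in each of 11 fits that left out 1 sample. That of *EXLA3* in WT was lost without WT drought replicate 2 or 3 (0.74 to 1.15 over the fits that left out 1 sample), in a model of the 2 WT groups alone and, as given above, with the touch and wound score.

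**Figure D3:**
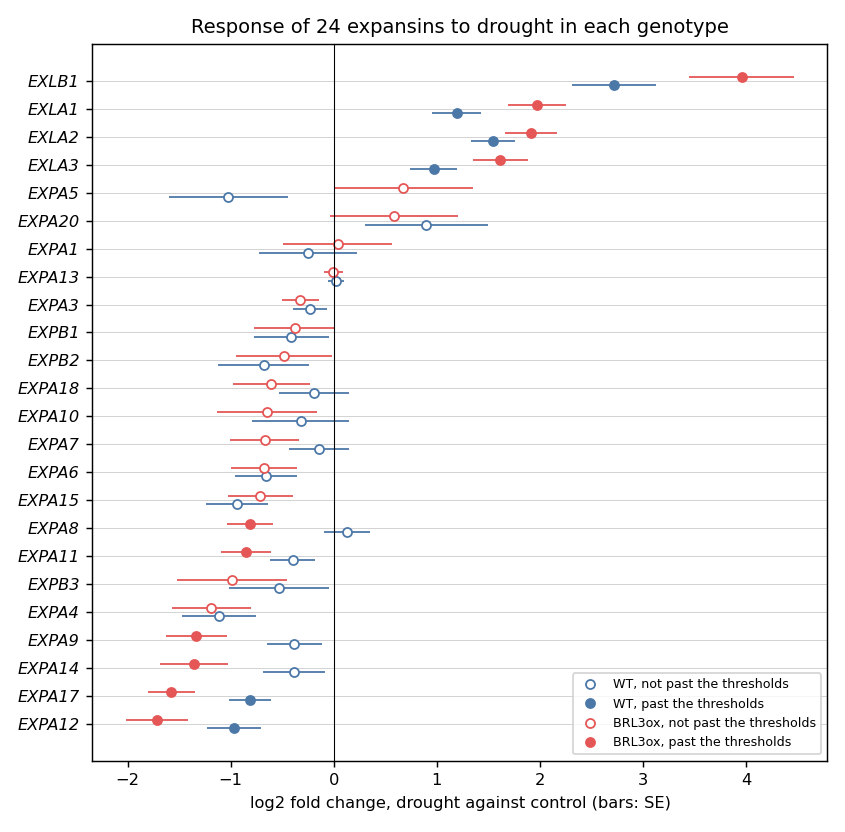
Log2 fold change of drought against control for the 24 tested expansins in WT (blue) and *BRL3ox* (red), with bars of 1 SE and filled points for genes past FDR 0.05 and a fold change of 1.5. The 4 expansin-like genes stand to the right in both genotypes, and 17 of the 20 alpha- and beta-expansins stand to the left of 0 in each.

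Among the members that fell, *EXPA17*, an alpha-expansin known from lateral root formation, showed a step in each genotype. It was at 25.8, 25.5 and 26.8 CPM in WT control and 17.96, 16.1 and 10.5 CPM in WT drought samples, which is a log2 change of -0.81 (SE 0.20, adjusted p = 0.0207, edgeR). In *BRL3ox* it was at 26.1 and 18.8 CPM in control and 8.34, 5.91 and 8.32 CPM in drought, a change of -1.58 (SE 0.23, adjusted p = 0.00149, edgeR). The groups did not overlap within either genotype, and the *BRL3ox* drought samples were the lowest of all. *EXPA12* was at 7.35, 7.53 and 10.6 CPM in WT control and 5.35, 4.10 and 3.51 CPM in WT drought samples, which gave -0.97 (SE 0.26, adjusted p = 0.0270, edgeR). Its *BRL3ox* values were 6.28 and 5.57 CPM in control and 1.53, 1.25 and 2.62 CPM in drought, or -1.72 (SE 0.30, adjusted p = 0.00346, edgeR). Both *BRL3ox* calls stood in all 11 fits that left out 1 sample, and both WT calls stood in 8 of 11. In WT, *EXPA12* lost its call without WT control replicate 3 or WT drought replicate 2 or 3 (log2 fold changes of -1.15 to -0.78 over all fits). *EXPA17* lost it without WT control replicate 1 or 2 or WT drought replicate 3 (-0.97 to -0.61). With the touch and wound score as a covariate the WT changes were -1.08 for *EXPA12* and -0.66 for *EXPA17*, and neither was called (adjusted p = 0.0669 and 0.134, edgeR).

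Some markers of root cell types fell in drought as well. Of 13, 0 rose and 3 fell in WT drought roots, against 7.54% and 4.84% of all tested genes. Those that fell were *GL2* of the non-hair epidermis, *SMB* of the root cap and *WOL* of the vascular tissue, by 0.93 to 1.16 on the log2 scale. In *BRL3ox* drought roots 5 fell, *GL2*, *SMB*, *SCR*, *SHR* and the endodermal *CASP1*, with log2 fold changes of -1.36 to -0.70, and *SUC2* of the phloem rose by 0.87. Of all tested genes 6.98% fell and 9.14% rose there. Between genotypes in drought *CASP1* was lower (-0.91) and *WOL* higher (0.99) in *BRL3ox*, against 2.12% and 1.39% of all tested genes. The summed level of the list was 409 to 468 CPM in WT control, 440 and 446 CPM in *BRL3ox* control, 369 to 378 CPM in WT drought and 384 to 417 CPM in *BRL3ox* drought roots, and its part in the expansin falls was not tested.

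The remaining 4 falls were called in *BRL3ox* alone. *EXPA9* was at 62.0 and 47.5 CPM in *BRL3ox* control and at 16.9, 15.9 and 32.3 CPM in drought, a log2 change of -1.33 (SE 0.30, adjusted p = 0.0103, edgeR). In WT it was at 53.0, 46.8 and 59.7 CPM in control and 53.5, 35.02 and 33.97 CPM in drought, where WT drought replicate 1 lay among the controls. *EXPA14*, which like *EXPA17* is known from lateral roots, was at 31.0 and 22.3 CPM in *BRL3ox* control and 13.0, 6.41 and 11.9 CPM in drought, a change of -1.35 (SE 0.33, adjusted p = 0.0157, edgeR). Its WT values overlapped, at 20.6, 18.2 and 12.2 CPM in control and 17.9, 10.3 and 10.9 CPM in drought. Without *BRL3ox* control replicate 1, neither *EXPA9* nor *EXPA14* was called, and over all fits that left out 1 sample their changes ran from -1.74 to -1.13 and from -1.57 to -1.09.

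*EXPA11* showed a smaller step. It was at 21.3 and 20.5 CPM in *BRL3ox* control and 9.78, 13.1 and 11.9 CPM in drought, a log2 change of -0.85 (SE 0.24, adjusted p = 0.0289, edgeR). In WT it was at 26.0, 22.7 and 26.8 CPM in control and at 27.3, 15.8 and 14.1 CPM in drought, with WT drought replicate 1 above all 3 controls. *EXPA8* was at 4.26 and 3.63 CPM in *BRL3ox* control and 2.07, 1.89 and 2.76 CPM in drought, a change of -0.81 (SE 0.23, adjusted p = 0.0271, edgeR). Its WT samples ranged from 1.31 to 1.82 CPM in control and from 1.51 to 1.92 CPM in drought, which overlap. Each of these calls stood in 7 of 11 fits that left out 1 sample. Both were lost without either *BRL3ox* control sample or without *BRL3ox* drought replicate 1, *EXPA8* also without *BRL3ox* drought replicate 2 and *EXPA11* without replicate 3, with changes of -0.99 to -0.69 for *EXPA8* and -0.94 to -0.74 for *EXPA11*.

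**Figure D4:**
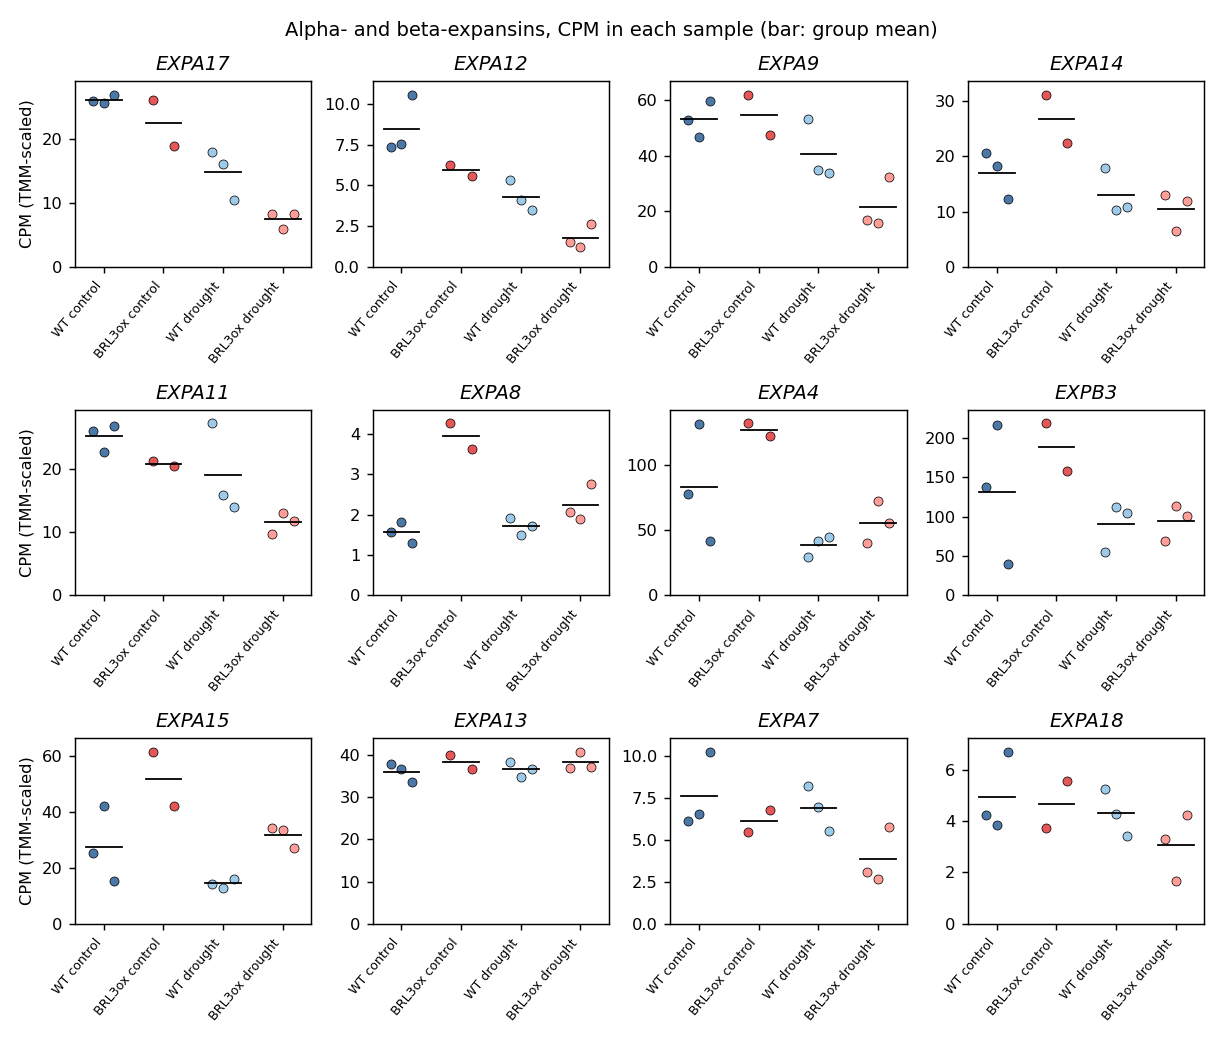
CPM of 12 alpha- and beta-expansins in each sample by group, with the group mean as a bar and each axis starting at 0. *EXPA17* and *EXPA12* are lowest in *BRL3ox* drought roots, *EXPA8* is highest in *BRL3ox* control roots, and *EXPA13* stays between 33.7 and 40.8 CPM throughout.

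Some abundant members were not called and varied most among the WT controls. *EXPB3*, the most abundant beta-expansin here, was at 137, 216 and 39.3 CPM in WT control replicates 1, 2 and 3 and at 219 and 157 CPM in *BRL3ox* control samples. Its drought values were 55.7, 112 and 104 CPM in WT and 69.3, 114 and 101 CPM in *BRL3ox*. The *BRL3ox* groups did not overlap, and the WT groups did. *EXPA4* was at 77.9, 131 and 41.3 CPM in WT control, 132 and 122 CPM in *BRL3ox* control, 29.5, 41.6 and 44.8 CPM in WT drought and 40.0, 71.9 and 55.3 CPM in *BRL3ox* drought roots. Its log2 fold change in drought was -1.11 in WT (SE 0.36, adjusted p = 0.0528, edgeR) and -1.19 in *BRL3ox* (SE 0.39, adjusted p = 0.0508, edgeR), short of the threshold in both. DESeq2, edgeR's likelihood ratio test and the quasi-likelihood test without the filter on low counts called both falls. The *BRL3ox* fall was called without WT control replicate 2 or 3, over fits with changes of -1.41 to -0.99. *EXPA13*, by contrast, was at 33.7 to 40.8 CPM over the 11 samples, with overlapping groups in all 4 comparisons. Its interval for the drought change in WT ran from -0.16 to 0.20 on the log2 scale.

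WT control replicate 3 stood at an edge of its group for many members. It was the lowest of the 3 WT controls for 13 of the 20 alpha- and beta-expansins (65.0%, against 38.0% of all tested genes) and the highest for 4 of the 4 expansin-like genes. This sample also had the lowest shoot marker sum, 14.6 CPM, and the highest touch and wound sum of its group. With the shoot marker score (the mean log2 CPM of its tested genes) as a covariate, chosen after seeing the data, every member called in a pairwise comparison without it was still called (edgeR). Without this sample, *EXPA4*, *EXPA6* and *EXPA15* were called lower in WT drought roots, where 16.1% of all tested genes were called. *EXPA4* and *EXPA15* had log2 fold changes of -1.44 and -1.23 there, the lowest over the fits that left out 1 sample. In *BRL3ox* drought roots *EXPA4*, *EXPA6*, *EXPA15* and *EXPB3* were then called lower too, where 17.9% of all tested genes were called.

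*EXPA7* and *EXPA18*, the expansins of root hair cells, were called in no comparison by the quasi-likelihood test on all 11 samples. *EXPA7* was at 6.14, 6.51 and 10.2 CPM in WT control, 5.46 and 6.75 CPM in *BRL3ox* control, 8.22, 6.96 and 5.51 CPM in WT drought and 3.11, 2.68 and 5.75 CPM in *BRL3ox* drought roots. In drought its difference between *BRL3ox* and WT was -0.84 (SE 0.30, adjusted p = 0.129, edgeR). Its drought change in *BRL3ox* was -0.67 (SE 0.33, adjusted p = 0.181, edgeR). Without *BRL3ox* drought replicate 3 this fall was called, where 13.9% of all tested genes were called. *EXPA18* was at 4.25, 3.85 and 6.70 CPM in WT control and 3.74 and 5.57 CPM in *BRL3ox* control samples, and at 5.25, 4.26 and 3.40 CPM and 3.29, 1.66 and 4.25 CPM in WT and *BRL3ox* drought samples. For both genes WT control and drought samples overlapped, and *BRL3ox* drought replicate 3 was the highest of its group. The other tested members were *EXPA1*, known from guard cells, at 2.61 to 15.3 CPM, *EXPA6* at 21.6 to 66.6 CPM, *EXPA3* at 2.07 to 3.31 CPM, *EXPB1* at 2.49 to 8.98 CPM, *EXPB2* at 0.706 to 4.52 CPM and the low *EXPA5*, *EXPA10* and *EXPA20*. None of these 8 was called in any comparison by the quasi-likelihood test on all 11 samples without a covariate. In *BRL3ox* drought roots *EXPA6* was called with the shoot marker score, in a model of the 2 *BRL3ox* groups alone and without WT control replicate 3. *EXPB1* was called there without *BRL3ox* drought replicate 3. Antisense genes overlap *EXPA20* over 985 bp, *EXPA18* over 46 bp, *EXPA7* over 23 bp and *EXLA1* over 22 bp, and, of the untested members, *EXPA21* over 430 bp and *EXPA2* over 61 bp.

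The second question was how *BRL3ox* roots differed from WT in the same condition. Under control conditions 1 member was called higher and 0 lower, where 0.217% of all tested genes were higher and 0.555% lower (0.772% in all). The samples of both genotypes did not overlap for 9 members, 3 higher and 6 lower in *BRL3ox*, against 18.2% and 18.8% of all tested genes. *EXPA8* was at 1.58, 1.82 and 1.31 CPM in WT and 4.26 and 3.63 CPM in *BRL3ox*, a log2 change of 1.32 (SE 0.23, adjusted p = 0.0413, edgeR). The groups did not overlap, and these levels rest on 24 to 89 counts per sample. The call stood in 3 of 11 fits that left out 1 sample, those without WT control replicate 2, WT drought replicate 1 or *BRL3ox* drought replicate 3, with log2 fold changes of 1.198 to 1.45 over all fits. It was also lost in a model of these 2 groups alone and with the touch and wound score as a covariate (0.98, adjusted p = 0.42, edgeR). That score itself differed between the genotypes here, as given below.

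Of the members not called under control conditions, 4 had an unadjusted p under 0.05 by edgeR, which with *EXPA8* makes 5 of 24, against 16.0% of all tested genes. *EXLA1*, *EXLA2* and *EXLA3* were lower in both *BRL3ox* control samples than in every WT control, with log2 fold changes of -0.91 (SE 0.27, adjusted p = 0.129), -1.12 (SE 0.24, adjusted p = 0.0602) and -0.98 (SE 0.26, adjusted p = 0.0987). The 3 genes were called lower by DESeq2, by edgeR's likelihood ratio test and in edgeR's quasi-likelihood test without WT control replicate 2 (-1.16, -1.35 and -1.22). With the touch and wound score as a covariate the differences of *EXLA1* and *EXLA3* were 0.03 and 0.09 and that of *EXLA2* was -0.42. Of the 8 genes of that score, 6 were lower in both *BRL3ox* controls than in every WT control, against 18.8% of all tested genes. The score and the genotype thus cannot be fully told apart under control conditions. *EXPA15*, named after its values were seen, was at 25.3, 42.2 and 15.4 CPM in WT control and 61.5 and 42.2 CPM in *BRL3ox* control samples, a difference of 0.90 (SE 0.32, adjusted p = 0.197, edgeR). In WT control roots it had the order of *EXPA4* and *EXPB3*, and *BRL3ox* replicate 3 stood level with WT replicate 2.

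In drought, 0 members were called higher in *BRL3ox* and 2 lower, against 1.39% and 2.12% of all tested genes (3.51% in all). Without overlap between genotypes, 3 were higher and 5 lower, against 14.0% and 14.0%. The difference was -0.98 for *EXPA17* (SE 0.21, adjusted p = 0.0306, edgeR) and -1.26 for *EXPA12* (SE 0.28, adjusted p = 0.0355, edgeR). Every *BRL3ox* drought sample was below every WT drought sample for both genes. The calls stood in 5 and 4 of 11 fits that left out 1 sample, with differences of -1.18 to -0.82 and -1.63 to -1.06. Losses came without WT control replicate 1, WT drought replicate 1 or 2, or *BRL3ox* drought replicate 1 or 2 for both genes. *EXPA17* was also lost without *BRL3ox* drought replicate 3, and *EXPA12* without either *BRL3ox* control sample. In a model of these 2 groups alone neither was called (adjusted p = 0.0601 and 0.0647, edgeR), and *EXPA12* was not with the touch and wound score (-1.21, adjusted p = 0.0521).

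A further 6 members had an unadjusted p under 0.05 by edgeR in drought, 2 of them higher and 4 lower in *BRL3ox*, so that 8 of 24 passed it, against 23.1% of all tested genes. *EXLB1* was 1.31 higher on the log2 scale (SE 0.38, adjusted p = 0.0766), with every *BRL3ox* drought sample above every WT drought sample. *EXPA15*, at 34.2, 33.7 and 27.2 CPM in *BRL3ox* and 14.4, 12.8 and 16.1 CPM in WT, was 1.13 higher (SE 0.30, adjusted p = 0.0594). Both were called by DESeq2 and by the likelihood ratio test, and in edgeR's quasi-likelihood test without WT control replicate 3, over fits with differences of 0.98 to 1.54 and 1.05 to 1.23. *EXPA15* was also called without WT control replicate 2. *EXLA2* was -0.76 (SE 0.21, adjusted p = 0.0618), *EXPA9* -0.91 (SE 0.27, adjusted p = 0.0787) and *EXPA11* -0.72 (SE 0.22, adjusted p = 0.0831) relative to WT, each with groups that did not overlap, and *EXPA7* was the sixth. DESeq2 and the likelihood ratio test called *EXLA2*, *EXPA9* and *EXPA11* lower, and *EXLA2* was also called in a model of these 2 groups alone and with the shoot marker score as a covariate. In the quasi-likelihood test, calls were gained for *EXLA2* without WT control replicate 2 or 3 (-0.91 to -0.65 over all fits) and for *EXPA9* and *EXPA7* without *BRL3ox* drought replicate 3, where they were at -1.31 and -1.25. The fitted difference was thus above 0 for *EXLB1* and below 0 for *EXLA1* to *EXLA3*, and none of the 4 was called in the test on all 11 samples.

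**Figure D5:**
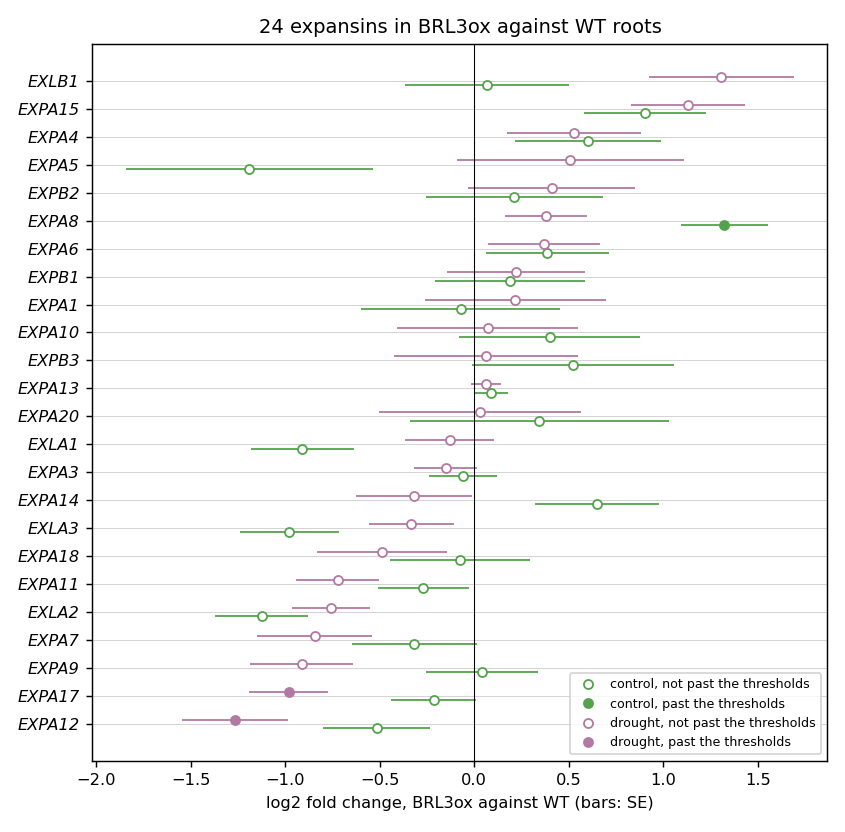
Log2 fold change of *BRL3ox* against WT for the 24 tested expansins under control conditions (green) and in drought (purple), with bars of 1 SE and filled points for genes past FDR 0.05 and a fold change of 1.5. *EXPA8* under control conditions (1.32) and *EXPA17* (-0.98) and *EXPA12* (-1.26) in drought are the filled points.

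The last comparison asked whether the drought response itself differed between genotypes, as the *BRL3ox* response minus the WT response. At an unadjusted p under 0.0025, edgeR's quasi-likelihood test called 0 of 24 members, against 0.951% of all tested genes (0.348% positive and 0.603% negative), and DESeq2 and the likelihood ratio test also called 0. At an unadjusted p under 0.05 there were 3 by edgeR, against 10.8% of all tested genes. These were *EXPA8* (-0.94, SE 0.32, adjusted p = 0.358), *EXPA17* (-0.77, SE 0.30, adjusted p = 0.415) and *EXPA9* (-0.95, SE 0.40, adjusted p = 0.432), all with the more negative response in *BRL3ox*. For *EXLB1* the interval of the difference ran from -0.05 to 2.53 on the log2 scale. *EXPA9* was called without *BRL3ox* drought replicate 3, at -1.36, and *EXLA1* without WT control replicate 2. With the shoot marker score as a covariate *EXLB1* was called, and in that model its response was the more positive in *BRL3ox*. A fall called in *BRL3ox* and not in WT was thus not shown to differ between genotypes.

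Genes that act with expansins were read from 3 lists. Plasma membrane proton pumps (*AHA* genes), which acidify the wall and so set the pH at which expansins work, had 10 of 11 members tested. In drought, 1 rose (*AHA4*, by 1.04 on the log2 scale) and 1 fell (*AHA2*, at -0.59) in WT, against 7.54% and 4.84% of all tested genes. In *BRL3ox*, 2 rose (*AHA3*, by 0.78, and *AHA4*, by 0.90) and 1 fell (*AHA2*, at -0.93), against 9.14% and 6.98%. Between genotypes in drought 1 was higher in *BRL3ox*, against 1.39% of all tested genes. This was *AHA9*, which stood at 0.303 to 1.11 CPM over the 11 samples, near the floor. Of 8 auxin-response genes of lateral root formation, some of which act upstream of *EXPA14* and *EXPA17*, 7 were tested. Of these, 0 were called in WT drought, against 12.4% of all tested genes, and 3 had an unadjusted p under 0.05 (edgeR), against 33.6%. In *BRL3ox* drought 1 rose, *ARF19*, by 1.88, against 9.14%. Between genotypes 0 were called. At an unadjusted p under 0.05 (edgeR), 2 were lower in *BRL3ox* control roots and 3 in *BRL3ox* drought roots, against 8.90% and 12.3% of all tested genes. Of 18 root hair genes, 17 were tested. In WT drought 1 was higher (*RSL4*, by 1.44) and 1 lower (*GL2*), against 7.54% and 4.84% of all tested genes. In *BRL3ox* drought 2 were higher (*RBOHC* and *CSLD3*) and 2 lower (*GL2* and *PRP3*), against 9.14% and 6.98%. *GL2* marks non-hair cells, so its fall is not a fall of a root hair gene. None of the 17 was called between genotypes by edgeR. Under control conditions 3 had an unadjusted p under 0.05, against 16.0% of all tested genes. In drought 9 had, all of them lower in *BRL3ox*, against 12.3% of all tested genes lower at that p, and the median log2 fold change of the list was -0.50. The fitted differences of *EXPA7* and *EXPA18* in drought were also below 0, and neither was called. The genes of these lists and the root cell type markers are named here because they passed the thresholds, after their values were seen.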

How the data were processed

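RNAseq libraries of polyA RNA (TruSeq Stranded) from 11 root samples were analysed. The authors trimmed 5 bp from the 3′ end of single-end reads, mapped them to TAIR10 and counted them per gene, and the deposited values are whole-number counts without normalization. The submitters' processing notes name FastQC, HISAT2 2.1.0 and HTSeq 0.9.1. The strand option and annotation release are not given in the sources used here, and where reads were counted without strand, antisense overlaps cannot be separated. The 5 HTSeq summary classes were left out of library sizes.

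Groups came from the labels. Genes were filtered with filterByExpr, normalized by TMM and fitted with 1 coefficient per group on all 11 samples (glmQLFit and glmQLFTest, edgeR 4.0.16, limma 3.58.1, R 4.3.3). Calls needed FDR (Benjamini-Hochberg) below 0.05 with a fold change above 1.5, and for the interaction an unadjusted p under 0.0025. The SE is the log2 fold change divided by the square root of F. The fit was tested on simulated data. Named members were those called in any comparison, the 8 of highest mean CPM per kb, *EXPA7*, *EXPA18*, *EXPA14* and *EXPA17*. Alternatives were RLE normalization, DESeq2 1.42.0, the likelihood ratio test, no filter, the replicate number as a block, only the 2 groups compared and leaving out each sample. Models with 1 of 2 marker scores as covariate were chosen after the data had been seen. Each score was the mean log2 CPM of the tested genes of its list, centred over the samples. The members and lists were chosen with earlier results of these data known. Coordinates, identities (coding sequence) and promoters come from the RefSeq annotation of TAIR10.1, in which all 34 identifiers were found.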

Additional observations from a re-analysis of the deposited data

How the results depend on the processing

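RLE normalization called the same members as TMM in all 4 pairwise comparisons. DESeq2 and edgeR's likelihood ratio test each called 3 members lower in *BRL3ox* control roots, 2 higher and 5 lower between genotypes in drought, and 4 lower in WT drought. Of all tested genes, DESeq2 called 4.18%, 6.36% and 13.9% in these comparisons, in either direction. The likelihood ratio test called 4.46%, 6.82% and 14.6%, and the quasi-likelihood test 0.772%, 3.51% and 12.4%. Without the filter on low counts, which tests 28 members, 1 was lower in *BRL3ox* control roots and 4 were lower in WT drought. Of all genes in that fit, 1.17% and 9.81% were called there in either direction. In *BRL3ox* drought that fit called 12 members, against 12.9% of all its genes. Among them was the low *EXPA16*, with 9 and 9 counts in *BRL3ox* control and 1, 2 and 1 in *BRL3ox* drought samples. In a model of the 2 compared groups alone, 0 were higher in *BRL3ox* control roots, 2 were higher and 1 lower between genotypes in drought, and 10 fell in *BRL3ox* drought. Of all genes tested in these models, 0.00994%, 3.15% and 18.8% were called in either direction. The cause of these shifts was not tested. With the shoot marker score as a covariate, 2 were higher and 3 lower in *BRL3ox* control roots, 2 were higher in *BRL3ox* than in WT drought roots and 1 interaction was positive. The shares of all tested genes called in either direction were 6.90%, 6.10% and 2.97%. Without the score the interaction share was 0.951%. With the touch and wound score, 0 were higher in *BRL3ox* control roots, 1 was higher and 1 lower between genotypes in drought, 0 fell in WT drought and 0 rose and 0 fell in *BRL3ox* drought. Here the shares of all tested genes called in either direction were 0.0386%, 2.88%, 6.19% and 2.42%. Under that score the *BRL3ox* minus WT difference under control conditions changed sign for *EXLA1* (0.0302), *EXLA3* (0.0857) and *EXPA15* (-0.26), none of them called, and so did the *BRL3ox* drought change of *EXPA4* (0.0934) and *EXPA15* (0.89). As given above, that score cannot be fully told apart from genotype under control conditions, or from condition in *BRL3ox* roots. Both scores were chosen after seeing the data.

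The replicate numbers come from the labels, which do not say what they share. Same-numbered samples deviated together in part: the correlation of their deviations from the group means was over 0.1 in 11 of 15 pairs (lowest -0.09, mean 0.15, highest 0.41). Between samples with different numbers it ran from -0.41 to 0.38. The main model used no block, and a structure shared by number is not excluded. With the replicate number as a block, 1 member was lower in *BRL3ox* control roots (*EXLA2*) and 2 were higher in *BRL3ox* than in WT drought roots (*EXLB1* and *EXPA15*). The block also added *EXLA2* to the members lower between genotypes in drought (adjusted p = 0.0448, edgeR), and *EXPA4* to those that fell in WT (adjusted p = 0.0352) and in *BRL3ox* drought roots (adjusted p = 0.0121). No call was lost with it. Of all tested genes the block called 3.47% between genotypes under control conditions and 5.95% in drought, against 0.772% and 3.51% without it. For drought against control the shares were 13.9% in WT and 18.4% in *BRL3ox*, against 12.4% and 16.1% without it.

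Fits that left out 1 sample and kept at least 2 in each group are given here with the shares of all tested genes called in either direction. Under control conditions 0 to 2 members were called higher and 0 to 3 lower in *BRL3ox*, against 0.0193% to 4.47%. Between genotypes in drought the ranges were 0 to 2 and 0 to 3, against 0.524% to 5.08%. In drought, 3 to 4 members rose and 0 to 4 fell in WT, against 8.01% to 16.1%. In *BRL3ox*, 4 rose in each of these fits and 4 to 10 fell, against 11.7% to 17.9%. Interactions ran from 0 to 1 positive and 0 to 1 negative, against 0.508% to 1.46%. *BRL3ox* control roots had 2 samples, so that each fit without one of them assumes that the lone sample varies like the other groups. Those fits are not in the ranges of this paragraph. Counts were low for *EXPA5*, *EXPA10* and *EXPA20*, where smaller changes were not detectable at this depth.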
